A study of Mus musculus with 4 samples.

Results

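The 9 chemokine genes Ccl1, Ccl3, Ccl4, Ccl5, Ccl17, Ccl20, Ccl22, Xcl1 and Cxcl10 were followed through RNA-seq of mouse T cells. They were taken by symbol from the 50600 genes in the deposited tables, and all 9 were found. Chemokines are small secreted proteins that bind G protein-coupled receptors on leukocytes and make those cells move towards the source. T cells make few of them at rest and several after their antigen receptor is engaged, and each chemokine draws a set of cells defined by the receptor it binds. Ccl3, Ccl4 and Ccl5 draw monocytes, macrophages and effector T cells, Ccl17 and Ccl22 draw Ccr4-bearing cells, and Ccl1 draws Ccr8-bearing cells. Ccl20 acts on Ccr6, Xcl1 on the Xcr1 of cross-presenting dendritic cells, and Cxcl10 on Cxcr3.

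The study holds 4 libraries of primary T cells from the mouse strain C57BL/6NJ, labelled as biological replicates 1 to 4 of 1 group. The labels give no treatment, genotype or control group, no age, and sex as not collected, and all 4 libraries carry 1 donor identifier. The differentiation protocol they link is named for CD4+ T cells, and the names in the file headers carry the terms Th0 and activated and a time of 48 h, which the labels do not. Whether the replicates came from separate animals or cultures is not stated, so the spread behind each p-value is that between these libraries and may be technical.

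Library depth ran from 45110199 to 127755788 counts, with replicate 3 the deepest. Levels are given as CPM, the counts of a gene per 1000000 counts of the library, and, where genes are compared with each other, as TPM, which first divides counts by the summed exon length of each gene. A gene with no count in a library could lie below 3 counts, which is 0.0235 to 0.0665 CPM at these depths. That limit, and every confidence interval below, covers counting error only. The cell type label was checked against marker genes: all 12 T cell identity genes lay above 1 CPM, led by Cd4 at 931 CPM ± 9.79 (SD, n = 4), while Cd8a, a defining gene of the other main T cell class, stood at 0.279 CPM ± 0.143 and Cd8b1, the gene of the other CD8 chain, above 1 CPM at 9.62 CPM ± 0.749 (SD, n = 4 each).

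The RNA of Ccl4 and Ccl3 stood at a level of its own among the 9 genes. Ccl5, Ccl22 and Ccl1 were low but above 1 CPM. Cxcl10, Xcl1, Ccl17 and Ccl20 lay below 1 CPM, the last 2 of them close to the limit of detection. With limma, the average of log2(CPM + 0.1) over the libraries was set against that of 1 CPM, one-sided in each direction, with Benjamini-Hochberg adjustment over the 23365 genes with a count. 5 of the 9 genes lay above 1 CPM and 4 below, at an adjusted p below 0.05. Over all genes tested, 47.4% lay above 1 CPM, 48.3% below and 4.28% on neither side. The split of the 9 genes is therefore near that over all genes with a count. Among the 15076 protein-coding genes with a count, 69.3% lay above 1 CPM. That is a closer background for these 9 coding genes, and a higher share than 5 of 9. The libraries are bulk RNA, so a few cells with much of a transcript and many cells with little cannot be told apart.

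**Figure D1:**
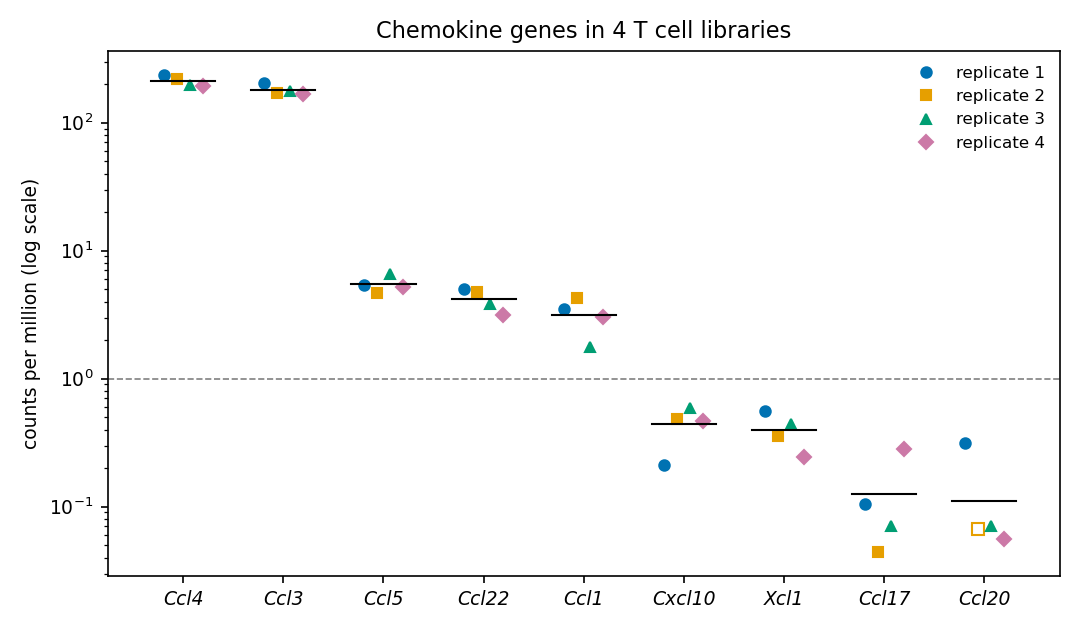
Level of each of the 9 chemokine genes in CPM (vertical axis, log scale) in each of the 4 libraries (coloured symbols), with the mean as a black line and 1 CPM as a dashed line. The open symbol stands for the 1 library without a Ccl20 count, drawn at the level of 3 counts. Ccl4 and Ccl3 lie between 167 and 237 CPM, and 4 genes lie below 1 CPM in every library.

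Ccl3 and Ccl4 encode the macrophage inflammatory proteins alpha and beta, which activated T cells secrete and which recruit monocytes, macrophages and other T cells. Ccl4 stood at 237, 221, 197 and 195 CPM in replicates 1 to 4. Replicate 1 was the highest and replicates 3 and 4 were close together at the low end. Ccl3 stood at 205, 172, 177 and 167 CPM in the same order. Replicate 1 was again the highest, and the other 3 libraries lay within a narrow range. The adjusted p for a level above 1 CPM was 1.36e-16 for Ccl4 and 1.43e-16 for Ccl3 (limma).

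Per length, Ccl4 reached 1104 TPM ± 99.5 (SD, n = 4) and Ccl3 807 TPM ± 74.2 (SD, n = 4). Ccl4 ranked 79 and Ccl3 133 among the 15076 protein-coding genes with a count, so that 99.5% and 99.1% of those genes had a lower TPM. The TPM ratio of Ccl4 to Ccl3 was 1.34, 1.49, 1.29 and 1.36 in replicates 1 to 4. Ccl4 was thus the higher of the pair in 4 of 4 libraries, and its lowest library (1011 TPM) lay above the highest library of Ccl3 (912 TPM).

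Ccl5, the chemokine known as RANTES that effector and memory T cells store and release, was far lower. It stood at 5.43, 4.68, 6.59 and 5.19 CPM in replicates 1 to 4, highest in replicate 3 and lowest in replicate 2. The adjusted p for a level above 1 CPM was 2.21e-09 (limma). Per length it reached 19.6 TPM ± 3.05 (SD, n = 4), and 55.1% of protein-coding genes with a count had a lower TPM. The mean TPM of Ccl3 was 41.2 times that of Ccl5.

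The next genes encode chemokines that draw helper and regulatory T cells. Ccl22, a Ccr4 ligand best known from dendritic cells and macrophages, stood at 4.97, 4.79, 3.80 and 3.17 CPM in replicates 1 to 4. Replicates 1 and 2 were nearly equal and above replicates 3 and 4. Its level lay above 1 CPM with an adjusted p of 1.05e-07 (limma). Ccl1, a Ccr8 ligand made by activated T cells, stood at 3.51, 4.23, 1.78 and 3.03 CPM. Replicate 3, the deepest library, was the lowest at 56.6% of the gene's mean, and replicate 2 the highest at 135%. The adjusted p for Ccl1 above 1 CPM was 2.47e-05 (limma). It holds for the counted gene model, which includes exons of a noncoding transcript.

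Ccl17, the other Ccr4 ligand, was counted only 32 times over all libraries. Its level was 0.105, 0.0443, 0.0704 and 0.281 CPM in replicates 1 to 4, with replicate 4 holding 15 of the 32 counts. It lay below 1 CPM with an adjusted p of 5e-06 (limma). Ccl20, the Ccr6 ligand, was counted 18, 0, 9 and 3 times in replicates 1 to 4. Replicate 1 held most of the 30 counts, and the 0 in replicate 2 allows a level of up to 0.0665 CPM. Its level lay below 1 CPM with an adjusted p of 1.2e-05 (limma).

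Xcl1, known as lymphotactin and made mainly by activated CD8 T cells and natural killer cells, stood at 0.562, 0.355, 0.438 and 0.244 CPM in replicates 1 to 4. Replicate 1 was the highest and replicate 4 the lowest. The adjusted p for a level below 1 CPM was 0.000903 (limma). Because its exons sum to only 523 bases, the same counts gave 2.62 TPM ± 0.879 (SD, n = 4), and set against 1 TPM instead of 1 CPM the gene lay above the threshold (adjusted p = 0.00116, limma). Cxcl10, an interferon-induced attractant of type 1 helper and cytotoxic T cells, stood at 0.211, 0.488, 0.587 and 0.468 CPM. Replicate 1, the highest library for 5 of the 9 genes, was the lowest here. Cxcl10 lay below 1 CPM with an adjusted p of 0.00226 (limma).

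Ordered by mean TPM, the genes ran Ccl4, Ccl3, Ccl5, Ccl22, Ccl1, Xcl1, Ccl17, Cxcl10 and Ccl20. Of the 8 pairs of neighbours in this order, 3 were apart, meaning that each library of one lay above each library of the other: Ccl4 over Ccl3, Ccl3 over Ccl5, and Ccl5 over Ccl22. From Ccl22 down, each gene overlapped the next. Ccl22 exceeded Ccl1 in 4 of 4 libraries, with a mean ratio of 1.36, but the lowest Ccl22 value (4.67 TPM) was below the highest Ccl1 value (6.11 TPM). Ccl17 exceeded Cxcl10 in 2 of 4 libraries, and without replicate 4 the pair changed places. No test of these pairs is given: the smallest p of the two-sided exact sign-flip test over 4 libraries is 0.125.

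The place of Ccl1 in this order rests on its gene model. The counted model sums to 2369 exon bases and includes exons of a long noncoding transcript, while the exons of its protein-coding transcripts sum to 613 bases at chr11:82176657-82179812 (GRCm38, minus strand). Counts over near and far exons cannot be told apart in a table of 1 count per gene. If every count came from the coding exons, Ccl1 would stand at 17.6 TPM ± 5.69 (SD, n = 4) instead of 4.54 TPM ± 1.47 (SD, n = 4). If counts came from the other exons, the coding transcripts would lie below the mean of 3.14 CPM counted for the gene. Their side of 1 CPM could then not be read from these counts. With coding exon lengths for all 9 genes, Ccl5 would stand at 35.3 TPM, Ccl1 between Ccl5 and Ccl22 and Cxcl10 above Ccl17, and 6 of the 8 pairs of neighbours would be apart. That alternative was chosen after the data were seen.

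The most abundant genes varied least between the libraries. The coefficient of variation was 9.53% for Ccl3 and 9.61% for Ccl4, and 85.2% for Ccl17 and 127% for Ccl20. For the last 2, counting error alone gives 36.4% and 38.7%. Replicate 1 was the highest library for 5 genes (Ccl3, Ccl4, Ccl20, Ccl22 and Xcl1) and replicate 4 the lowest for 4 (Ccl3, Ccl4, Ccl22 and Xcl1). The others ran otherwise: replicate 3 was the highest library of Cxcl10 and Ccl5, replicate 2 of Ccl1 and replicate 4 of Ccl17.

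Variation beyond that of genes of similar abundance was tested in edgeR by goodness of fit to the dispersion trend. 7 of the 9 genes passed its filter on low counts, Ccl17 and Ccl20 did not, and 0 of the 7 were called variable. Over all 13279 genes tested, 0.422% were called variable. At an unadjusted p below 0.05 edgeR picked 2 of the 7, Ccl1 (adjusted p = 0.392) and Ccl3 (adjusted p = 0.767), beside 5.8% of all genes tested. DESeq2 marked 0 of the 7 as a dispersion outlier. Ccl1 had the widest gap between edgeR's biological coefficient of variation for the gene (21.7%) and that of the trend at its abundance (16.1%). The method draws the gene's value towards the trend, which narrows such gaps.

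**Figure D2:**
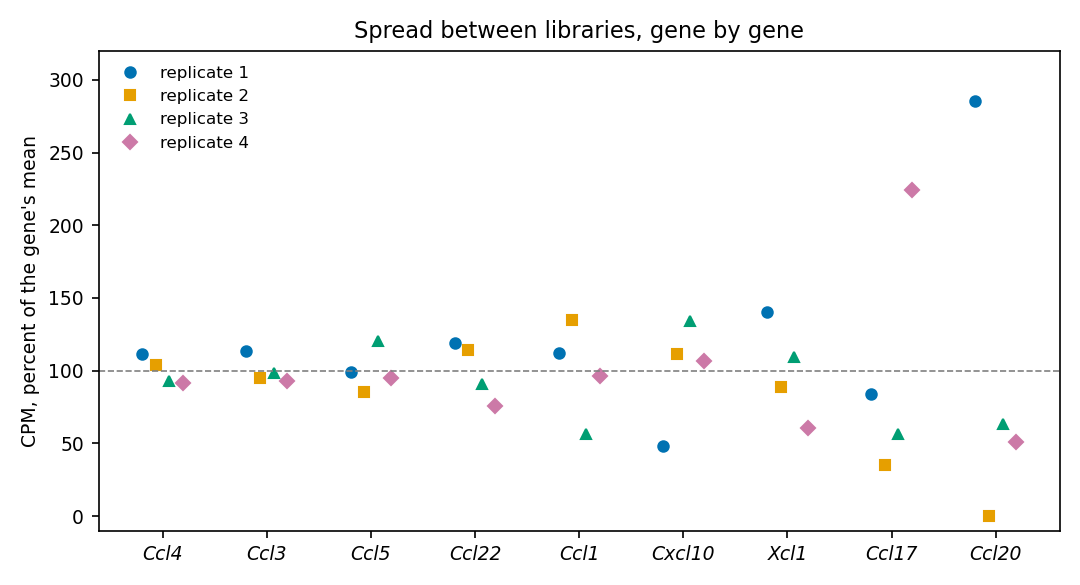
CPM of each library as a percent of the gene's mean over 4 libraries (vertical axis, linear), for the 9 genes in order of mean CPM; the dashed line is 100%. Ccl3 and Ccl4 stay between 91.8% and 114% of their means, Ccl1 falls to 56.6% in replicate 3, and Ccl17 and Ccl20 each have 1 library above 200%.

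Together with 29 other chemokine genes, the 9 genes show which genes made up the chemokine RNA counted. Ccl3 and Ccl4 held 93.4% ± 0.504 (SD, n = 4) of the counts of these 38 genes, and the other 7 of the 9 genes held 3.30% ± 0.116 (SD, n = 4). In replicate 1 the share of Ccl3 and Ccl4 was 93.7% (Wilson 95% interval 93.4% to 94.0%), and in replicate 2 it was the lowest at 92.7% (92.3% to 93.0%). All 38 genes together took 0.0387% to 0.0472% of a library's counts, with replicate 1 at the top. Of the 29 others, 17 had no count in any library, 8 lay below 1 CPM and 4 above: Ccl25, a thymic and gut chemokine, at 5.56 CPM ± 0.968, the membrane-bound Cx3cl1 at 3.78 CPM ± 0.988, Ccl9 at 1.81 CPM ± 0.517 and Ccl27a at 1.65 CPM ± 0.287 (SD, n = 4 each). Per length, Ccl25, with a counted model of 7445 exon bases, stood at a mean of 2.56 TPM, below Cx3cl1 at 3.30 TPM. Ccl27a is uncertain, since transcripts of other genes are nearly identical to it, as they are for Ccl19 and Ccl21a, both without counts. None of the 9 genes had such a copy.

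Several of the 9 genes lie in clusters of chemokine genes, and their neighbours differed in level. On chromosome 11, Ccl3 and Ccl4 start 13.2 kb apart on opposite strands. In the same cluster Ccl6 had no count, Ccl9 lay 70.7 kb and Ccl5 119 kb from the start of Ccl3. Ccl1 lies elsewhere on chromosome 11 beside Ccl8, Ccl12, Ccl11, Ccl7 and Ccl2, monocyte and eosinophil attractants that start 64.6 to 144 kb away, and none of these 5 genes had a count in any library. Ccl22 and Ccl17 are 64.9 kb apart on chromosome 8 with Cx3cl1 between them. Ccl22 and Cx3cl1 were at similar CPM. Per length, each library of Ccl22 (4.67 to 7.29 TPM) lay above each library of Cx3cl1 (2.74 to 4.57 TPM). Every library of Ccl17 lay below every library of both in CPM and in TPM. On chromosome 5, Cxcl9 and Cxcl11, the 2 other Cxcr3 ligands, start 20.8 kb and 14.4 kb from Cxcl10 and had no count. Ccl20 and Xcl1, both on chromosome 1, had no other listed chemokine within 500 kb.

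**Figure D3:**
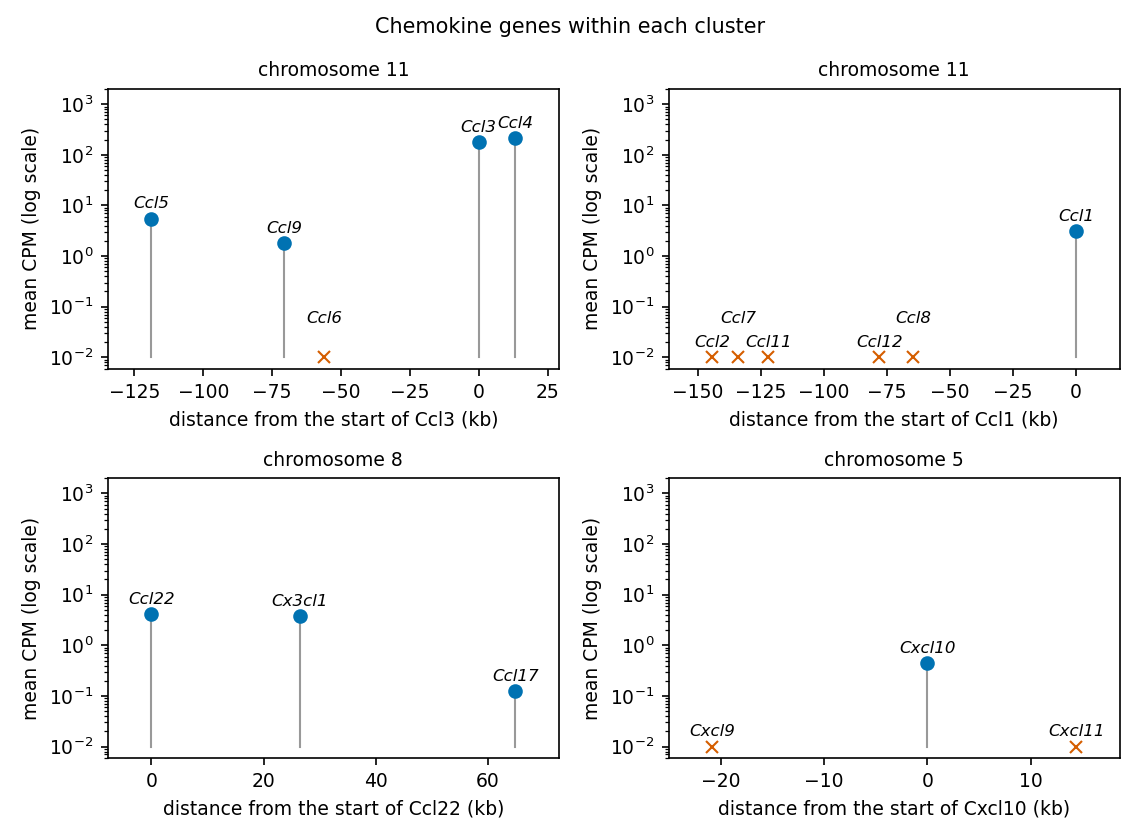
Mean CPM over 4 libraries (vertical axis, log scale) of the chemokine genes around Ccl3, Ccl1, Ccl22 and Cxcl10, against distance in kb from the start of that gene (horizontal axis). Crosses at the base mark genes without a count. Ccl3 and Ccl4 stand far above Ccl5 and Ccl9 in their cluster, and Ccl1 is the only counted gene in its own.

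The 9 genes also overlap other genes in 2 places. Xcl1 shares exon positions with Gm20743, which had no count, and Cxcl10 with Art3, at 0.0299 CPM ± 0.0206 (SD, n = 4), both on the opposite strand. The counting used strand, per the file headers.

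Promoter sequences, the 250 bases before the annotated start, were read from RefSeq (GRCm38.p6) for the 7 genes with an entry; Ccl4 and Ccl5 had none. They were searched for the kappaB consensus of NF-kB, the NFAT core GGAAA, the AP-1 site TGACTCA and the interferon-stimulated response element (GAAA, 2 further bases, GAAA) on both strands, and for TATAAA on the gene's strand. Among 32851 mouse promoters of the same length, 7.25% held the kappaB consensus, 55.6% the NFAT core, 4.46% the AP-1 site, 2.98% the interferon element and 7.59% TATAAA. 4 are shown, from the most abundant of the 7 to 1 below 1 CPM and from no motif to the most motifs, with matched motifs in capitals. All read 5′ to 3′ on the strand of the gene, ending at the base before its start.
Ccl3 promoter, GRCm38.p6 chr11:83649379-83649628, minus strand: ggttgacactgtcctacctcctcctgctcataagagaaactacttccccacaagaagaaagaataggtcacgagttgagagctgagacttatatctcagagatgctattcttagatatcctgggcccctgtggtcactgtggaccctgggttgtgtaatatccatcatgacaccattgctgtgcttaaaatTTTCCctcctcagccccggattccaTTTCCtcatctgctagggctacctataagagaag
Ccl22 promoter, GRCm38.p6 chr8:94745434-94745683, plus strand: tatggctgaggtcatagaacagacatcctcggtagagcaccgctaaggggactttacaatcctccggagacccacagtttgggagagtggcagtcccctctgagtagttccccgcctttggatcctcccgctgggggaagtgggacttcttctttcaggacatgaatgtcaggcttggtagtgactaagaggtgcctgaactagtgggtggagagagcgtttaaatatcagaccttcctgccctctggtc
Ccl1 promoter, GRCm38.p6 chr11:82179813-82180062, minus strand: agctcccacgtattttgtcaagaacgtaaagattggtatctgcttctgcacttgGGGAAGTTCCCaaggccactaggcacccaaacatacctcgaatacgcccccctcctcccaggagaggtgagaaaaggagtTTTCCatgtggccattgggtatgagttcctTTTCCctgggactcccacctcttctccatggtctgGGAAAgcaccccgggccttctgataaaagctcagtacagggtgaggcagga
Cxcl10 promoter, GRCm38.p6 chr5:92348890-92349139, minus strand: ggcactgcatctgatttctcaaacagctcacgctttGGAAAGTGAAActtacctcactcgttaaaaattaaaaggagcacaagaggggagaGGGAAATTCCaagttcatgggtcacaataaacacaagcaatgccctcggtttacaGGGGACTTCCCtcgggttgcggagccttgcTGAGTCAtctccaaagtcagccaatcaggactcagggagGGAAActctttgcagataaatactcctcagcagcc

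Motif content and level were not in the same order. Ccl3, the most abundant of the 7, held 2 NFAT cores, 34 and 59 bases before its start, and none of the other motifs. Ccl22 held none of the motifs searched, while Ccl1 held 1 kappaB match 196 bases before its start and 3 NFAT cores. The counted model of Ccl22 starts at chr8:94745590, inside its promoter window, so its result holds for the RefSeq start only. The scarcely counted Cxcl10 held the most: 2 kappaB matches, 3 NFAT cores, 1 AP-1 site and 1 interferon element, of which the interferon element and a kappaB match each overlap an NFAT core. Ccl20, also scarcely counted, held 1 kappaB match that overlaps 1 of its 3 NFAT cores, and Ccl17 and Xcl1 held 1 NFAT core each. TATAAA was in none of the 7. These are matches of letters, not measured binding.

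Genes for subunits of NF-kB, NFAT and AP-1 were read within a wider list of inducing factors, some of which bind other sites. Of 19 genes for inducing transcription factors, 18 lay above 1 CPM and Maf, at 0.621 CPM, below. Junb, Nfkb2, Irf4 and Nfkb1 had the highest TPM of the list, from 1054 TPM for Junb to 384 TPM for Nfkb1. Of 13 interferon response genes, 8 lay above 1 CPM, 4 below and Usp18 on neither side. Gbp2, Isg15, Irf9 and Ifit2 had the highest TPM of that list, from 29.7 TPM for Gbp2 to 17.5 TPM for Ifit2. The summed level of the 13 genes was 117, 134, 133 and 123 CPM in replicates 1 to 4. It was lowest in replicate 1, as was the level of Cxcl10. Not every gene of the list was lowest there: Irf9 was lowest in replicate 4. The part of the 13 genes in the Cxcl10 values was not tested. Usp18 was called variable between the libraries (adjusted p = 0.0162, edgeR goodness of fit).

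AU-rich pentamers in the 3' untranslated region (UTR) are a textbook feature of short-lived cytokine transcripts and also separated the 9 genes. Ccl3 held 5 ATTTA pentamers in 409 UTR bases, a density of 12.2 per kb, above that of 99.4% of 20674 genes with an annotated 3' UTR. Ccl20 held 9 in 1050 bases (8.57 per kb, above 98.3%), Xcl1 1 in 141 bases (7.09 per kb, above 96.9%) and Ccl4 2 in 302 bases (6.62 per kb, above 96.2%). Cxcl10 followed with 3.01 per kb and Ccl22 with 1.1 per kb, near the median over all genes of 1.28 per kb, and Ccl1, Ccl5 and Ccl17 held none. The pair at the top of the level order and the gene at its foot were thus alike in this feature. The genes compared had UTRs of at least 50 bases, with a median of 988 bases and a median of 1 pentamer. Xcl1 therefore stands high by its short UTR and not by its number of pentamers. The densest 30-base windows of Ccl3 and Ccl20 are shown with the pentamers in capitals.
Ccl3 3' UTR window: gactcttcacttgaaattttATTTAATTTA
Ccl20 3' UTR window: tgtaaagatATTTAatgttctgtttATTTA

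Setting chemokines beside receptors for them split the pairs into 2 kinds. Ccr8, Ccr4, Ccr6 and Cxcr3, receptors of Ccl1, of Ccl17 and Ccl22, of Ccl20 and of Cxcl10, lay above 1 CPM. Ccr1 and Xcr1 lay below it, and Ccr3 had no count. Ccr6 stood at 173 TPM ± 14.9, Ccr8 at 123 TPM ± 4.18, Ccr4 at 71.6 TPM ± 4.39 and Cxcr3 at 7.30 TPM ± 1.17 (SD, n = 4 each). Each of these 4 receptors exceeded its chemokine in TPM in 4 of 4 libraries. Ccr8 exceeded Ccl1 by 20.9 to 45.2 times (5.42 to 11.7 times with the coding exon length of Ccl1) and Ccr4 exceeded Ccl22 by 9.86 to 14.3 times. For Ccl3 and Ccl5 beside Ccr1, Ccl5 beside Ccr3, and Xcl1 beside Xcr1 the order was the opposite in 4 of 4 libraries: Ccr1 stood at 0.0303 TPM ± 0.0411 and Xcr1 at 0.0517 TPM ± 0.0388 (SD, n = 4 each). No test was made of this split.

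**Figure D4:**
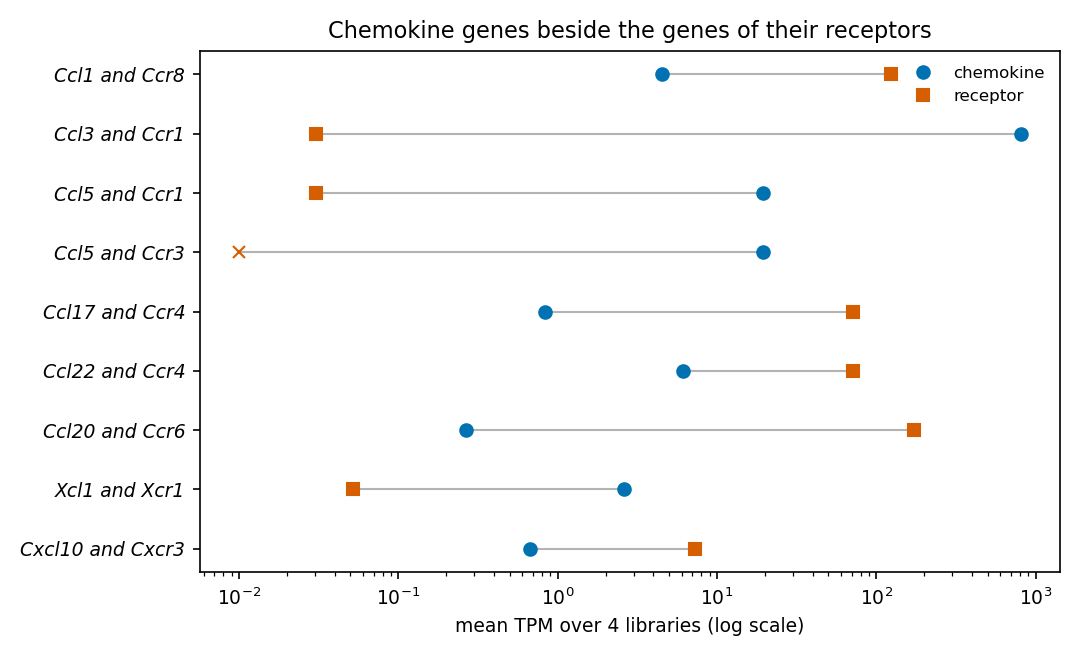
Mean TPM over 4 libraries (horizontal axis, log scale) of 8 chemokine genes (circle) and of a receptor gene for it (square), 1 row per pair; the cross marks Ccr3, without a count. Receptors exceed the chemokine for Ccl1, Ccl17, Ccl22, Ccl20 and Cxcl10 and fall far below it for Ccl3, Ccl5 and Xcl1.

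Genes that store, trim or take up chemokines were read as well. Srgn, the proteoglycan serglycin of secretory granules, stood at 187 CPM ± 13.5 (SD, n = 4), which per length is 293 TPM against 807 TPM for Ccl3. Dpp4, the cell-surface peptidase that trims the ends of several chemokines, stood at 31.7 CPM ± 2.57 (SD, n = 4), and the atypical receptor Ccrl2 at 6.54 CPM ± 0.379 (SD, n = 4). Of the 4 decoy receptor genes, Ackr2 had counts in 1 library only and Ackr1, Ackr3 and Ackr4 had none.

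Among 32 genes for secreted proteins, the 9 chemokines and 23 cytokines, Ccl4 ranked 3 and Ccl3 5 by mean TPM. Above both stood Il2, the T cell growth factor, at 2008 TPM and Mif at 1821 TPM, and between them Tnfsf11, the gene of the cytokine RANKL, at 842 TPM. Il3 came next at 447 TPM. Ccl5 ranked 15 beside Il13, Ccl22 16, Ccl1 17, Xcl1 20, Ccl17 22, Cxcl10 24 beside Ifng, and Ccl20 28. Of the 23 cytokine genes, 14 lay above 1 CPM and 9 below.

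Markers of other cells that make these chemokines were read in the same libraries. Of 12 myeloid markers, Adgre1 (2.60 CPM) and Cd68 (2.69 CPM) lay above 1 CPM, 7 lay below, and the defining genes Lyz2, S100a8 and S100a9 had no count; their summed level was 5.12 to 6.63 CPM. Of 12 dendritic cell markers, Cd83 (126 CPM), Tmem123 (98.4 CPM) and Zbtb46 (5.76 CPM) lay above 1 CPM, while Itgax, Clec9a, Clec10a, Cd209a and Ccl19 had no count; the sum was 225 to 246 CPM. Most of that sum was Cd83 and Tmem123. In CPM, which does not divide by exon length, Ccl3 and Ccl4 each lay above the summed myeloid level and below the summed dendritic level in every library. Per length, Cd83 stood at 202 TPM and Tmem123 at 109 TPM, against 1104 TPM for Ccl4 and 807 TPM for Ccl3. Both genes lay above each single dendritic marker in every library, the highest being Cd83 at 118 to 133 CPM. Ccl22, at 3.17 to 4.97 CPM, lay below both sums. The part of such cells in the chemokine levels was not tested.

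Of 12 markers of CD8 T cells and natural killer cells, Cd8b1 (9.62 CPM), Eomes (2.34 CPM) and Nkg7 (2.47 CPM) lay above 1 CPM and 7 below, with a sum of 14.1 to 16.5 CPM. Gzmk and Klre1 had no count. Xcl1 and Ccl5, genes that such cells transcribe, lay below that sum in every library, and the part of these cells was not tested. Of 10 B cell markers, Ighm (161 CPM) and Ebf1 (1.53 CPM) lay above 1 CPM, 7 below and Cd79b on neither side, with a sum of 151 to 184 CPM that was nearly all Ighm. Without replicate 1, 3 or 4 Ebf1 was no longer above 1 CPM.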

How the data were processed

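RNA-seq counts of 4 libraries in 1 group were analysed, so no conditions were compared. The deposited values are raw counts per gene, made per the file headers with featureCounts 1.4.6-p4 on GENCODE M13 exons with strand option 2 and without the options that count multi-mapping or shared reads. Per the labels the assembly is mm10. Alignment settings, not given in the sources used here, could change the counts. In the labels the assay is total RNA-seq, but the protocol they link is named for polyadenylated RNA, and selecting such RNA would lower transcripts without a tail.

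From the counts, CPM and TPM were computed with python 3.11.15, pandas 2.3.3 and numpy 2.4.6. Symbols matched 50376 of 50600 genes. The 224 genes without a symbol took up to 0.00921% of the counts of a library. Levels were tested with limma 3.58.1 (trended empirical Bayes, pseudocount 0.1) and variability with edgeR 4.0.16 (TMM factors 0.9956 to 1.005, filterByExpr) in R 4.3.3, with DESeq2 1.42.0 as an alternative. Shares carry Wilson intervals (scipy 1.17.1). UTRs and coding exons came from GENCODE M21, near-identical transcripts (at least 95% identity over at least 50% of the transcript) from blastn 2.17.0+, and figures from matplotlib 3.10.9. Counts of each pair of libraries differed beyond sampling noise (chi-square over its degrees of freedom, 7.78 to 24.2). Each library was counted as 1 replicate, as labelled. The chi-square cannot tell separate animals or cultures from separate preparations of the same cells.

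The 9 genes and the lists were chosen with earlier results of these data known. All 9, every other listed chemokine, receptor, carrier and decoy receptor that a result turns on, the 4 genes of highest TPM of each other list among those above 1 CPM, each marker above 1 CPM and genes overlapping the 9 were eligible to be named. Markers without a count, those on neither side of 1 CPM, Maf, Cd8a, Usp18, Il13 and Ifng were named after their values were seen. No likeness of pattern was computed over only 4 libraries. Alternatives were TPM, other thresholds, pseudocounts and filters, thinning to equal depth, DESeq2 and leaving out each library. Some items of the lists are not reported here.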

Additional observations from a re-analysis of the deposited data

Results flagged for a closer look

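In 82 genes of the lists, the highest or lowest library was set against the gap to its nearest neighbour by Dixon's ratio, and 3 genes had a library that stood apart, none of them among the 9 chemokine genes. Chance gives about 1 in 20. Cx3cl1, which lies between Ccl22 and Ccl17, reached 5.25 CPM in replicate 2 against 3.15 to 3.39 CPM in the others. Irf1, an interferon response gene, reached 17.3 CPM in replicate 3 against 16.4 to 16.5 CPM. Cd4 reached 945 CPM in replicate 3 against 924 to 927 CPM.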

How the results depend on the processing

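For the 9 genes, 103 of 106 level values under the alternatives kept their direction and their side of the threshold. The exceptions came with TPM in place of CPM: Xcl1 turned to above 1, at 2.62 TPM, and Ccl17 (0.836 TPM, adjusted p = 0.31) and Cxcl10 (0.67 TPM, adjusted p = 0.118) were no longer called below by limma, which left 1 of the 9 genes below. With filterByExpr 2 of the 9 and 1183 of all genes lay below 1 CPM instead of 4 and 11285, since low genes are not tested. With a threshold of 2 CPM, Ccl9 (1.81 CPM) and Ccl27a (1.65 CPM) were no longer above, which left 2 other chemokines, and Ebf1 (1.53 CPM) left 1 B cell marker and Eomes and Nkg7 1 CD8 and natural killer marker above. Ebf1 lay below 1 on the TPM scale (0.538 TPM). Leaving out 1 library gave 1 to 2 B cell markers above and 33 to 40 variable genes instead of 56, with 33 without replicate 1 and 37 without replicate 3 or 4. Ccl3 and Ccl4 held 97.6% of chemokine TPM. With coding exon lengths, 6 pairs of neighbours were apart. The causes were not tested where none is given. No paired analysis was possible because there is 1 group, so no 2 groups share replicate numbers. Depth limits Ccl17 and Ccl20, with 32 and 30 counts in all.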
